A study of Mus musculus with 6 samples.

Results

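The ubiquitin-conjugating enzymes and the deubiquitinases were examined in mouse embryonic stem (ES) cells that lack Tex19.1. Members were taken by symbol from the authors' deposited table: genes whose names start with Ube2, with Usp followed by a digit, or with Otud, leaving out Ube2a and Ube2b. This gave 80 of the 10128 genes, 28 of them Ube2 genes, 46 Usp genes and 6 Otud genes. The study compared 3 RNA-seq libraries of Tex19.1-/- cells with 3 of Tex19.1+/- cells, which still carry 1 functional copy. Both genotypes descend from the E14Tg2a line (129/Ola background), were grown in foetal calf serum with medium containing leukaemia inhibitory factor, and were at passages 12 to 18. Cells with 2 intact copies were not analysed here, and whether the 3 libraries of a genotype come from separate clones or cultures is not given in the sources used here, so the p-values may measure technical spread alone.

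Ubiquitin is a small protein that is attached to other proteins in a relay. An activating enzyme (E1) charges it, a conjugating enzyme (E2) carries it, and a ligase (E3) places it on the target, often as a chain whose linkage decides between destruction by the proteasome and signalling. Deubiquitinases cut ubiquitin off again. The Usp and Otud genes encode cysteine proteases of the USP and OTU families, and the E2 enzymes named Ube2 also include the carriers of related modifiers such as NEDD8. The protein product of Tex19.1 binds the ligase UBR2, a partner of the E2 enzymes left out by the naming rule.

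Promoters are shown for 3 members, the deubiquitinase gene with the largest rise, the deubiquitinase gene with the largest fall and the Ube2 gene with the largest rise, because the level and the sequence class of these genes differ widely. Each line is the sense strand of the gene, 5′ to 3′, of 300 bases around the RefSeq start on GRCm38.p6, with every CG dinucleotide in capitals. The Usp26 window is chrX:51801184-51801483 (minus strand), the Usp11 window chrX:20703659-20703958 (plus strand) and the Ube2g1 window chr11:72607011-72607310 (plus strand).
Usp26: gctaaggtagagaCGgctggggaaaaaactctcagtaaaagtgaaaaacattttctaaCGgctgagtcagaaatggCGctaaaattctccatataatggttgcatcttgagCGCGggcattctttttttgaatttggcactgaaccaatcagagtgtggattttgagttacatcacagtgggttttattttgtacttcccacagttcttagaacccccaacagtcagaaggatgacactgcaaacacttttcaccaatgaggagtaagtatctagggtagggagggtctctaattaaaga
Usp11: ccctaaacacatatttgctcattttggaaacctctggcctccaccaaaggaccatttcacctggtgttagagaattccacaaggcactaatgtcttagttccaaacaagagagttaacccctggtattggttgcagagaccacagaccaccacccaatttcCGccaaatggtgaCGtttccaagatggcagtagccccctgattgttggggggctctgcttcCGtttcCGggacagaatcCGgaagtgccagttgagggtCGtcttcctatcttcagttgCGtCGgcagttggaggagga
Ube2g1: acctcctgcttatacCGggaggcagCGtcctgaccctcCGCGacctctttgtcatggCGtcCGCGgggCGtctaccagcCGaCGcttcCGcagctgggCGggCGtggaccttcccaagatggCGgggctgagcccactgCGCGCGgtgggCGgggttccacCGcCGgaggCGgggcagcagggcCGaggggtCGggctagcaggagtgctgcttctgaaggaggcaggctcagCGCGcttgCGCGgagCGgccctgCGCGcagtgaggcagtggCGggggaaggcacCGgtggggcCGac
The Usp26 window holds 5 CG dinucleotides, a number that 43.6% of all 27025 reference promoters do not exceed. The Usp11 window holds 8 (53.8% of promoters at or below) and the Ube2g1 window 33 (92.5%). A RefSeq promoter was at hand for 21 of the 28 Ube2 genes, with a median of 29 CG dinucleotides, and for 39 of the 52 Usp and Otud genes, with a median of 31. Over the genes of the table with a promoter the median was 22, so both classes consist mostly of genes with CG-rich starts. At most 10 CG dinucleotides were found in 1 Ube2 promoter (4.76%) and 4 Usp or Otud promoters (10.3%), Usp26 and Usp11 among the latter. The share was 13.1% over the genes of the table with a promoter.

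All expression values below are from the authors' deposited table, which holds 1 log2 fold change (Tex19.1-/- over Tex19.1+/-), 1 mean level in CPM (read counts scaled to library size) over the libraries, and 1 edgeR p-value per gene, adjusted by the Benjamini-Hochberg method over all genes. No value per library was used here: the overlap of single libraries cannot be described, and their depth is unknown. A gene is called at an adjusted p under 0.05. An approximate standard error of each log2 fold change was obtained from its deposited p-value by a normal approximation. Its median was 0.04 for the members, and a difference between a pair of genes has a larger error. Tex19.1 itself stood at -6.92 in the authors' deposited table, 0.828% of the Tex19.1+/- level, and the direction of the column was read from it. The 10 ES cell markers examined had means of 192 to 1566 CPM. Of these, 5 rose and 2 fell, 50% and 20% beside 25.2% and 26.5% of all genes. Their values ran from -0.17 for Dppa5a to 0.36 for Zfp42 in the authors' deposited table. None of 7 fibroblast or feeder markers is in the table. Of 6 endoderm markers 4 were measured, at means of 7.38 to 16.9 CPM, and all 4 fell, with log2 fold changes of -2.32 to -1.56 in the authors' deposited table. A smaller endoderm-like share of the cells and less RNA per cell cannot be told apart in such bulk libraries, and its part in the differences among the members was not tested.

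Most E2 and deubiquitinase genes of Tex19.1-/- cells stood close to their Tex19.1+/- level. Of the 80 members, 19 rose, 15 fell and 46 were not called, that is 42.5% called against 51.7% of all genes. Log2 fold changes smaller than 0.1 were found for 62.5% of the members and for 45.3% of all genes. The members' median level was 56.6 CPM, above the 33.0 CPM of all genes. With a change of at least 0.2 on the log2 scale, 10 members rose, 12.5% against 12.0% of all genes, and 4 fell, 5.00% against 17.2%. By these counts, which were not tested, the members held about the general share of sizeable rises and a smaller share of sizeable falls.

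**Figure D1:**
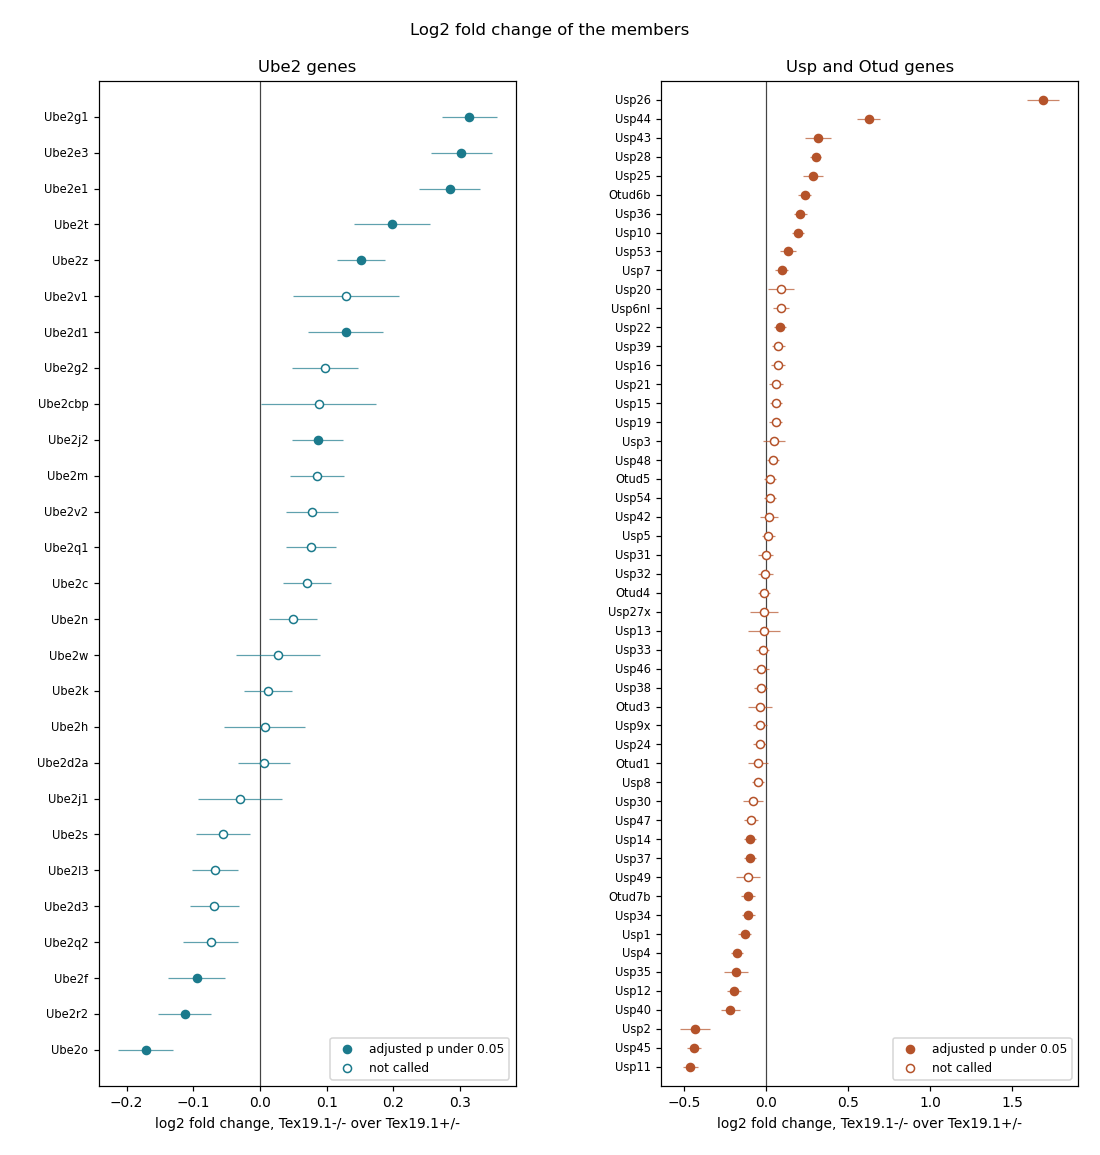
Log2 fold change (Tex19.1-/- over Tex19.1+/-) of the Ube2 genes (left, 1 of the 28 not shown) and the 52 Usp and Otud genes (right), with filled points at an adjusted p under 0.05 and bars of 1 approximate standard error derived from the deposited p-value. The Ube2 genes lie between -0.17 and 0.31, and Usp26 at 1.69 and Usp44 at 0.62 stand apart among the deubiquitinases; the horizontal scales differ.

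Most conjugating enzyme genes were not called in Tex19.1-/- cells, with rises near the share of all genes and a smaller share of falls, a comparison that was not tested. Of 28 Ube2 genes 8 rose and 3 fell, 28.6% and 10.7%, against 25.2% and 26.5% of all genes. Their median log2 fold change was 0.07, and 20 of the 28 had a positive value. With a trend on protein length subtracted, as described below, the median was 0.03. The range was narrow, from -0.17 for Ube2o to 0.31 for Ube2g1 in the authors' deposited table, and no Ube2 gene fell by 0.2 or more.

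The largest E2 rise belonged to an enzyme of endoplasmic reticulum (ER) quality control, which marks misfolded ER proteins for the proteasome. Ube2g1 (ENSMUSG00000020794.13, chromosome 11 from 72607283 to 72686481, plus strand, GRCm38) stood at 0.31, which is 1.24-fold higher, with an adjusted p of 2.52e-13 and a mean of 74.4 CPM in the authors' deposited table. Its paralog Ube2g2, another E2 of ER-associated degradation, was at 0.10 (adjusted p = 0.0848) in the same authors' deposited table and was not called. The gap of 0.22 between the paralogs is 3.37 times the approximate standard error of their difference. Of the membrane-anchored ER enzymes, Ube2j2 rose slightly, at 0.09 (adjusted p = 0.0450), and Ube2j1 was at -0.03 in the authors' deposited table (adjusted p = 0.712). Of these 4 ER-linked genes 2 were called higher and none lower, beside 25.2% and 26.5% of all genes. Ube2j2 was no longer called at an adjusted p under 0.01. On chromosome 11, which holds Ube2g1, the median of all genes was 0.07.

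The UBE2E enzymes, E2s with an N-terminal extension ahead of a core like that of the UBE2D family, both rose by almost the same amount. Ube2e3 stood at 0.30 (adjusted p = 3.24e-10) and Ube2e1 at 0.28 in the authors' deposited table (adjusted p = 3.72e-09), at means of 36.8 and 31.5 CPM. They differed by 0.02, less than the approximate standard error of that difference, 0.06. Ube2e1 lies on chromosome 14, where the median of all genes was -0.12, but 3 of its 8 neighbours rose and 2 fell. Ube2e3 lies on chromosome 2, where the median was -0.01, and 4 of its 8 neighbours rose and none fell. Ube2e2, the other gene of the family, is not among the genes of the table. The UBE2D enzymes, which work with many ligases, did not move together: Ube2d1 rose by 0.13 (adjusted p = 0.0427), Ube2d2a was at 0.01 and Ube2d3 at -0.07 in the authors' deposited table. Per kilobase of transcript, Ube2d3 and Ube2d2a, at 147 and 55.1 CPM, had much higher levels than Ube2d1 at 13.8 CPM. The member that rose was thus the one with the lowest level, and Ube2d1 was no longer called at an adjusted p under 0.01.

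The carriers of NEDD8, a modifier that activates cullin ligases, differed. Ube2f fell by 0.10 (adjusted p = 0.0489) and Ube2m was at 0.09 in the authors' deposited table (adjusted p = 0.0682). At an adjusted p under 0.01 Ube2f was no longer called. The cell cycle pair of the anaphase-promoting complex was not called. Ube2c, which starts its chains, was at 0.07 and Ube2s, which extends them, at -0.06 in the authors' deposited table, with adjusted p of 0.0876 and 0.245. Both are abundant: at 336 CPM per kilobase Ube2s had the highest level of the 28 genes and Ube2c, at 156, the second highest. The signalling E2 Ube2n and its partners Ube2v1 and Ube2v2, variants without a catalytic cysteine, were at 0.05, 0.13 and 0.08 in the authors' deposited table, with none called. Reads of Ube2v1 are uncertain, since 80.7% of its 75-base stretches also occur in transcripts of other annotated genes. The share was at least 10% for 8 of the 80 members.

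Of the remaining Ube2 genes, Ube2t, Ube2z, Ube2o, Ube2r2 and Ube2cbp are named after their values were seen. Ube2t rose by 0.20, just short of the 0.2 limit, and Ube2z by 0.15 in the authors' deposited table. Ube2t serves the Fanconi anaemia repair pathway, and Ube2z is the E2 charged by the activating enzyme UBA6. Ube2o, a large enzyme that combines E2 and E3 activity, fell by 0.17 (adjusted p = 0.000127) and Ube2r2, a partner of cullin ligases, fell by 0.11 (adjusted p = 0.0109) in the authors' deposited table. The paralogs Ube2q1 and Ube2q2 were at 0.08 and -0.07, and Ube2l3, the E2 of HECT and RBR ligases, at -0.07 in the authors' deposited table, none of them called. Over all 17 Ube2 genes that were not called, the values ran from -0.07 to 0.13. Ube2cbp carries the prefix but is known as a ligase; it was at 0.09 in the authors' deposited table (adjusted p = 0.406).

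The deubiquitinases went both ways and held the largest changes of all the members, while the typical size of a change was alike in both classes. The median size of the log2 fold change, regardless of sign, was 0.089 for the Usp and Otud genes and 0.086 for the Ube2 genes. Of the 52 Usp and Otud genes 11 rose and 12 fell, 21.2% and 23.1%, beside the 25.2% and 26.5% of all genes. Their median log2 fold change was -0.01, and 24 of the 52 were positive. At 0.2 or more, 7 rose and 4 fell, 13.5% and 7.69% against 12.0% and 17.2% of all genes. Usp6nl meets the naming rule but encodes an activator of a Rab GTPase; it was at 0.09 in the authors' deposited table (adjusted p = 0.0935).

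Usp26, an X-linked deubiquitinase gene known from the testis, had the largest change of any member. With 3.22 times the Tex19.1+/- level in Tex19.1-/- cells, it stood at 1.69 on the log2 scale, with an adjusted p of 2.79e-65, in the authors' deposited table (ENSMUSG00000055780.10, chromosome X from 51753959 to 51801233, minus strand). Its mean of 4.25 CPM was the lowest of all 80 members and close to the lowest mean in the table, 3.52 CPM. Genes of that level are in the table mostly with a change: 93.9% of the 98 genes under 5 CPM were called. Of the related Usp37 and Usp29, Usp37, which acts in S phase entry, fell by 0.10 (adjusted p = 0.0224) in the authors' deposited table, and Usp29 is not in it.

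Usp44, which removes ubiquitin from histones and supports the mitotic checkpoint, had the next largest rise. It was 1.54-fold higher, at 0.62 with an adjusted p of 5.02e-17 and a mean of 9.68 CPM in the authors' deposited table. Usp49, its histone-directed paralog, was at -0.11 in the authors' deposited table (adjusted p = 0.215), 0.73 below Usp44, and 51.0% of its 75-base stretches also occur in transcripts of another annotated gene. Usp28 and its paralog Usp25 rose by the same amount within error, 0.30 (adjusted p = 8.45e-17) and 0.29 (adjusted p = 9.56e-06) in the authors' deposited table. Usp28 stabilises MYC and acts in the p53 response, and with 49.2 CPM per kilobase it had the fourth highest level of the 52 genes, far above Usp25 at 3.35. Other rises of at least 0.2 were those of Usp43 at 0.32, a gene of only 5.35 CPM, Otud6b at 0.24 and the nucleolar Usp36 at 0.21 in the authors' deposited table. Usp31, a relative of Usp43, was at -0.00 and Usp42, a relative of Usp36, at 0.02 in the authors' deposited table.

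The falls were led by Usp11, an X-linked enzyme that supports repair by homologous recombination. It was at -0.46 (adjusted p = 5.47e-23, mean 65.5 CPM) in the authors' deposited table, which is 0.727 times the Tex19.1+/- level. Its paralogs differed: Usp4 fell by 0.18 (adjusted p = 8.73e-06) and Usp15, an activator of TGF-beta signalling, was at 0.06 in the authors' deposited table (adjusted p = 0.157). The spread of 0.52 between Usp11 and Usp15 is 8.96 times its approximate standard error. Usp45, which acts with the nucleotide excision repair nuclease, was at -0.44 (adjusted p = 2.40e-24), and Usp2, a gene with circadian expression in other tissues, at -0.43 in the authors' deposited table (adjusted p = 6.65e-06). Usp2 is low, with a mean of 4.70 CPM, and like Usp26 it lies under 5 CPM, where 93.9% of genes were called. Usp40, the last member to fall by 0.2 or more, was at -0.22 in the authors' deposited table (adjusted p = 0.000497).

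The 3 genes for enzymes that share the activating partner UAF1 all had negative values, as had 4980 of all 10128 genes. Of the 3, 2 were called lower, while 26.5% of all genes were. Usp12 fell by 0.20, just short of the limit (adjusted p = 1.10e-05), Usp1, which acts on PCNA and FANCD2 in DNA repair, fell by 0.13 (adjusted p = 0.00259), and Usp46 was at -0.03 in the authors' deposited table (adjusted p = 0.629). Enzymes that act on histones or in DNA repair, the group that holds Usp44, Usp28, Usp11 and Usp45, comprised 12 genes, of which 4 rose and 2 fell, so that the group was called about as often as the 51.7% of all genes. The other rises in it were those of Usp7, the deubiquitinase of MDM2 and p53, at 0.10 (adjusted p = 0.0281), and Usp22, the deubiquitinase of the SAGA coactivator, at 0.09 in the authors' deposited table (adjusted p = 0.0317). The histone-directed Usp3, Usp16 and Usp21 lay between 0.05 and 0.07 in the authors' deposited table and were not called, nor was Usp27x, a relative of Usp22, at -0.01. None of the 6 genes for enzymes of membranes and organelles was called, while 51.7% of all genes were. The 6 are Usp8 of the endosome, Usp19 of the ER, Usp30 of mitochondria, Usp32, Usp20 and Usp33, with values from -0.08 to 0.09.

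Of the enzymes that recycle ubiquitin at or near the proteasome, Usp14, named after its value was seen, fell slightly, by 0.10 (adjusted p = 0.0156) in the authors' deposited table. Usp5 and Usp13, which take free chains apart, were at 0.01 and -0.01 in the authors' deposited table. Usp9x, a widely acting X-linked enzyme of high abundance, was at -0.04, and the relatives Usp7 and Usp47 were at 0.10 and -0.09 in the authors' deposited table, with Usp47 not called. Usp53, long classed as catalytically inactive, rose by 0.13 and its relative Usp54 was at 0.02 in the authors' deposited table. In the OTU family Otud6b rose and Otud7b, which acts in NF-kappaB signalling, fell by 0.11 (adjusted p = 0.0248), whereas Otud4 and Otud5 were at -0.01 and 0.02 in the authors' deposited table. Over the 29 Usp and Otud genes that were not called, the values ran from -0.11 to 0.09.

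Paralogs were compared in 22 sets with at least 2 measured genes; 9 further paralogs, such as Usp29 and Ube2e2, are not among the genes of the table. In 6 sets the highest and lowest members lay 0.2 or more apart, and of the pair Usp26 and Usp37 the first rose while the other fell. The pairs Ube2e1 with Ube2e3 and Usp25 with Usp28 were the ones that rose together, by 0.28 to 0.30 in the authors' deposited table.

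Set side by side, the Ube2 genes had a median log2 fold change 0.08 above that of the Usp and Otud genes, 0.07 against -0.01. Positive values were found for 71.4% of the Ube2 genes and 46.2% of the Usp and Otud genes, beside 50.8% of all genes. The median levels of the classes were 59.0 and 53.2 CPM. Without members on chromosomes 2, 14 and Y the Ube2 median was 0.04 and the gap between the classes 0.05. Their proteins differ in length: the median was 184 residues for Ube2 genes and 912.5 for Usp and Otud genes, and 23 of the 28 Ube2 proteins are shorter than the shortest Usp or Otud protein, Otud6b with 325 residues.

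**Figure D2:**
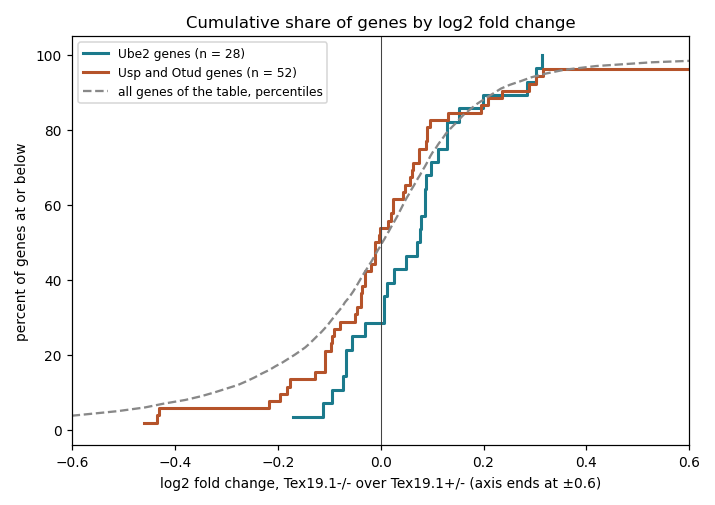
Share of genes (percent) at or below each log2 fold change for Ube2 genes, Usp and Otud genes, and all genes of the table as percentiles. Of the Ube2 genes 20 of 28 lie above 0, against 24 of 52 Usp and Otud genes, and both curves rise more steeply than that of all genes; the axis ends at 0.6, so Usp44 and Usp26 lie beyond it.

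Across the whole table, genes of short proteins were higher in Tex19.1-/- cells. Among the 963 genes with the shortest proteins, at most 189 residues, the median log2 fold change was 0.06 and 36.6% of genes rose, against a median of -0.03 and 19.9% among the 963 with the longest, at least 1220 residues. The 21 Ube2 genes of at most 264 residues had 6 rises and 2 falls, 28.6% and 9.52%, against 31.9% and 19.0% of the 1925 genes of that length class. The median log2 fold change was 0.07 for these Ube2 genes and 0.04 for that class. The 37 Usp and Otud genes of at least 703 residues had 9 rises and 9 falls, 24.3% each, against 22.3% and 30.3% of the 2887 genes there. Their median was -0.002, against -0.016 for those 2887 genes. With a smooth trend on protein length subtracted, the median was 0.03 for the Ube2 genes and 0.02 for the Usp and Otud genes, and the gap between the classes shrank to 0.01. None of these differences from genes of like length was tested, and the count of 2 falls among the short Ube2 genes is small. The largest single changes moved little by this step: Usp26 stood at 1.69, Usp44 at 0.63, Usp11 at -0.45 and Ube2g1 at 0.27 after it.

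**Figure D3:**
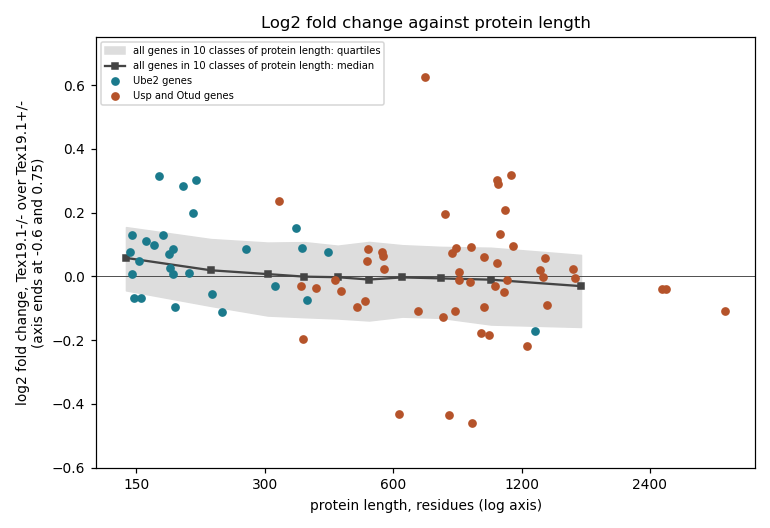
Log2 fold change against protein length (residues, log axis) for Ube2 genes and for Usp and Otud genes, with the median and quartiles of all genes in 10 classes of protein length. The median of all genes is 0.06 in the class of shortest and -0.03 in that of longest proteins, and the Ube2 genes fill the short end; Usp26 at 1.69 lies above the axis.

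The calls depended on what a change was set against. At an adjusted p under 0.01, 6 Ube2 genes were higher and 1 lower, and 8 Usp or Otud genes were higher and 7 lower, beside 19.5% and 21.8% of all genes. With Bonferroni adjustment the counts were 3 and 0 for Ube2 genes and 7 and 5 for the Usp and Otud genes, beside 9.58% and 14.2%. Among genes of at least 16 CPM they were 8 and 3 and 7 and 9, beside 26.9% and 24.8%. When the spread of genes at a similar mean level replaced the edgeR test, which leaves 1.89% of all genes higher and 4.32% lower, the members called were Usp26 and Usp44 as higher and Usp11 as lower.

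The members called with a change of 0.2 or more lie on several chromosomes, with Usp43, Ube2g1 and Usp36 all on chromosome 11. That chromosome also holds Tex19.1, and the median log2 fold change of its 809 measured genes was 0.07. Whether this bears on the rises of these members was not tested. For each of these 14 members the 4 measured genes on either side were examined. The windows spanned from 0.316 Mb around Usp11 to 12.5 Mb around Usp25, so a neighbour need not lie close to the member. Of the 112 neighbours 39 were called in the member's direction, 19 in the other, and 54 were not called, while 25.2% of all genes rose and 26.5% fell. Neighbours were thus called more often in the member's direction than in the other, a difference that was not tested. Usp26 lay in a stretch of chromosome X, 4.26 Mb long, where 5 of 8 neighbours rose and none fell. Firre, a long non-coding RNA gene, and Stk26 were both at 0.84 in the authors' deposited table. The glypican genes Gpc3 and Gpc4 were at 0.79 and 0.34, and Phf6 at 0.22 in the authors' deposited table. The median of all 315 measured genes of chromosome X was 0.07, beside 0.003 over all genes. Around Usp2 on chromosome 9, 6 of 8 neighbours fell, among them Nectin1 at -0.66 and the ubiquitin ligase gene Cbl at -0.37 in the authors' deposited table. On chromosome 4, 3 of the 8 neighbours of Usp45 fell and none rose. Tstd3 and Ccnc, whose start coordinates lie 9.77 kb and 39.5 kb from that of Usp45, were at -0.54 and -0.25 in the authors' deposited table. On its other side Pnisr and Coq3, at 80.4 kb and 113 kb, were at -0.04 and -0.09 and were not called. Around Usp11, neighbours on chromosome X ranged from -0.10 to 0.21, with 1 called lower and 2 called higher, and they include Uba1, the main ubiquitin-activating enzyme gene, at -0.02 in the authors' deposited table. These neighbours were named after their values were seen.

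**Figure D4:**
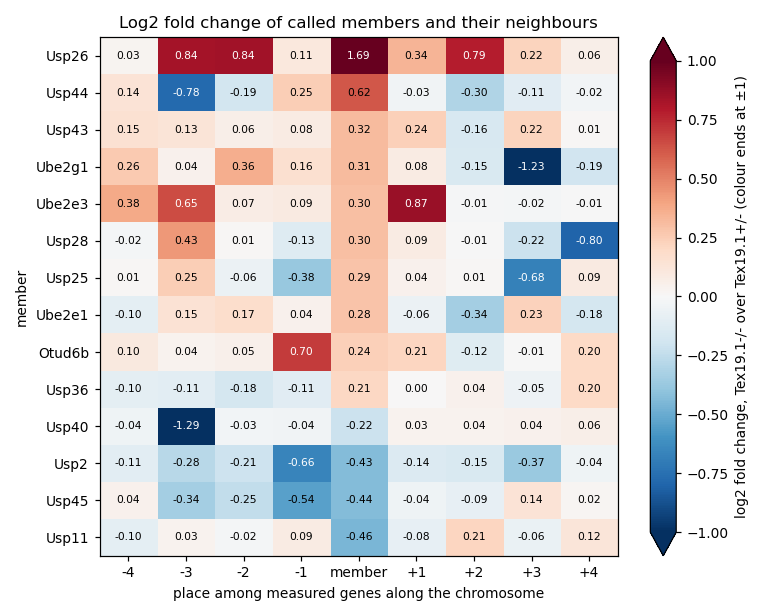
Log2 fold change (printed and as colour, which ends at 1 in size) of the 14 members called with a change of at least 0.2 and of the 4 measured genes on each side along the chromosome. Usp26, at 1.69, sits among positive neighbours and Usp2, at -0.43, among negative ones, while Usp11, at -0.46, and Usp44, at 0.62, have neighbours of both signs.

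Genes for the other steps of the ubiquitin relay had changes of at most 0.2 where they are named here. Of 8 measured activating enzymes 1 rose and 1 fell (12.5% each), with a median log2 fold change of -0.01; these were the subunits of the SUMO-activating enzyme, Sae1 at 0.19 and Uba2 at -0.09 in the authors' deposited table. Among 13 genes for ubiquitin and related modifiers 5 rose and 1 fell, 38.5% and 7.69% against 25.2% and 26.5% of all genes, with a median of 0.07. They were led by Nedd8 at 0.20, Sumo2 at 0.15 and the autophagy modifier gene Atg12 at -0.15 in the authors' deposited table. Of 6 E2-like genes with other names 2 rose (33.3%) and none fell, with Aktip at 0.19 and the ESCRT gene Tsg101 at 0.12, and Ufc1 was at -0.10 in the authors' deposited table (adjusted p = 0.0512).

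Deubiquitinases of the UCH to ZUP1 families had calls near the general share, while OTU and USP genes outside the naming rule were called less often. Of 19 genes of the UCH, MJD, JAMM, MINDY and ZUP1 families 6 rose and 5 fell, 31.6% and 26.3% against 25.2% and 26.5% of all genes, with a median of 0.03. Uchl3, on chromosome 14, was at -0.44, Fam63a (MINDY1) at -0.34 and the neuronal and germ cell hydrolase gene Uchl1 at 0.40 in the authors' deposited table. Of 10 OTU and USP family genes outside the naming rule 2 rose (20.0%) and none fell, against 25.2% and 26.5% of all genes. Alg13 was at 0.45 and Otulin, which cuts linear chains, at 0.28, while Vcpip1 was at -0.09 in the authors' deposited table (adjusted p = 0.0760). Partners of USP enzymes had 4 rises and 1 fall among 12 genes, 33.3% and 8.33% beside the same shares of all genes. The partner of USP7, Gmps, was at 0.24, the partner of USP10, G3bp1, at 0.20 and Ywhae at 0.19 in the authors' deposited table; Usp10 itself, named after its value was seen, rose by 0.19 (adjusted p = 3.43e-07) in the authors' deposited table.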

How the data were processed

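RNA was extracted with TRIzol and read paired-end from TruSeq stranded mRNA libraries, per the labels' protocols. Per the submitters' processing notes, the tools were edgeR, HTSeq 0.11.2, TopHat2 2.1.0 and Trim Galore 0.4.1, and the build mm10. The annotation, the strand setting, any count filter and the edgeR version and model are not stated in these notes. The table deposited by the authors gives, for 10128 genes, a log2 fold change, a log2 mean CPM, a p-value and its adjusted form. Benjamini-Hochberg values recomputed from the deposited p-values differed by at most 6.70e-05. The direction of the deposited log2 fold change is not named and was read from Tex19.1.

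No model was fitted here. Counts, medians, approximate standard errors (size of the log2 fold change over the normal z of its two-sided p-value) and 7 planned and 2 later alternatives were computed with Python 3.11.15, numpy 2.4.6, pandas 2.3.3, scipy 1.17.1 and statsmodels 0.14.6, after a test on simulated data. Protein and transcript lengths (longest coding transcript), positions and shared 75-base stretches came from GENCODE M21 (GRCm38, of which mm10 is another name), where 9587 symbols matched directly and 137 by older symbols, all 80 members directly. Levels per kilobase divide the mean CPM by that transcript's length. The length trend was a lowess fit (span 0.3) on log2 protein length over 9623 genes. Promoters are RefSeq's. Values are given for members called with a change of at least 0.2, for fixed paralog sets and for the 3 smallest p-values of each pathway list, and others are marked as named after their values were seen. A few genes are included in counts and medians but are not reported here by name. The members and lists were chosen with earlier results of these data known.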

Additional observations from a re-analysis of the deposited data

How the results depend on the processing

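No paired analysis was possible because values per library were not used here, and for the same reason no replicate could be left out. Counts below are higher then lower in Tex19.1-/- cells; as reported they were 8 and 3 for Ube2 genes and 11 and 12 for Usp and Otud genes. At an adjusted p under 0.01 the falls dropped to 1 Ube2 gene and 7 Usp or Otud genes. Bonferroni adjustment left 3 and 0 Ube2 genes, and 7 and 5 Usp or Otud genes. Genes of at least 16 CPM gave 7 rises of Usp or Otud genes, as fewer were tested. Against the spread of genes of like expression the counts were 0 and 0 for Ube2 genes, and 2 and 1 for Usp and Otud genes. With the trend on protein length subtracted, the Ube2 median moved to 0.0287 and the gap between the classes to 0.0115. Without members on chromosomes 2, 14 and Y the Ube2 median was 0.0379 and the gap 0.0484. Leaving out inactive or misnamed members gave a Ube2 median of 0.0493, and leaving out Usp6nl or members with shared sequence, chosen after seeing the data, moved no count by over 1.5 times. Of the 14 members called at 0.2 or more, 14 kept the call at an adjusted p under 0.01 and 12 with Bonferroni adjustment (not Usp40 and Usp43). Against genes of like expression 3 kept it. Only 8 of the 14 have at least 16 CPM, and these 8 kept the call among genes of that level. Usp26, Usp44, Usp43, Usp25, Usp2 and Usp40 lie below it. No sign turned.

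For the pathway lists, calls in either direction are given as reported and with Bonferroni adjustment. They were 2 and 1 for activating enzymes, 6 and 0 for modifiers and 2 and 0 for E2-like genes. The UCH to ZUP1 families had 11 and 4, and the other OTU and USP genes 2 and 2. There were 4 and 0 for SUMO and NEDD8 proteases and 5 and 3 for USP partners. Of all genes 51.7% were called as reported, and with Bonferroni adjustment 9.58% were higher and 14.2% lower. At an adjusted p under 0.01 the activating enzymes had 1. Against genes of like expression the UCH to ZUP1 families had 2, the other OTU and USP genes 1 in place of 2, and the remaining lists 0. By that measure 1.89% of all genes were higher and 4.32% lower. The cause of these differences was not tested. Depth is unknown, so no limit from counting can be given.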

Other observations

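SUMO and NEDD8 are taken off their targets by proteases of their own. Of 8 measured SUMO and NEDD8 proteases 3 fell and 1 rose, 37.5% and 12.5% against 26.5% and 25.2% of all genes, with a median log2 fold change of -0.05. Senp5, a nucleolar SUMO protease, was at -0.19 (adjusted p = 2.09e-05), Senp3, also nucleolar, at -0.15 (adjusted p = 9.24e-05) and Desi2 at -0.16 in the authors' deposited table (adjusted p = 0.000360). Of the other genes of these routes named above, Sae1, Sumo2 and Nedd8 rose and Uba2 and Ube2f fell, each by less than 0.2, and Ube2m was not called. Uba2 and Ube2f were no longer called at an adjusted p under 0.01.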
